A study of Mus musculus with 4 samples.

Results

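The TGF-beta, BMP and activin signalling genes form the module described here. Its members are the value rows of the array table that name exactly 1 gene whose symbol belongs to the Tgfb, Bmp, Gdf, Inha, Inhb, Acvr, Smad or Ltbp families. Gdf15 and Inhbe were left out, and where a gene had several rows the row with the highest mean signal over the 4 arrays was used. The rule itself uses family names and not the response to diet, but the members were chosen with earlier results of these data known. It gave 54 members among 22180 genes tested, and all 54 were found in the RefSeq gene table by gene identifier. Only Gdf5 had more than 1 row, with differences of -0.32 for the row used and -0.17 for the dimmer row. A further 4 rows name such a symbol together with another gene and were not used.

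Total liver RNA came from wild-type male C57BL/6J mice, an inbred strain, that were allotted at 6 weeks of age to a normal diet or to a diet deficient in methionine and choline (MCD diet) and kept on it for 20 weeks. Each diet is represented by 2 samples on gene-level microarrays, numbered 1 and 2 as in the labels, and no other allele or agent is named. The MCD diet is a dietary model of steatohepatitis, and the whole tissue was used, so that a level mixes all liver cell types. The labels do not say whether a sample is 1 animal or a pool, so the p-values speak only to the spread among these 4 samples, which may be technical. Signals are on a log2 scale inferred from the values, and all fold changes depend on that inference.

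Ligands of the TGF-beta superfamily are secreted dimers that assemble type I and type II serine/threonine kinase receptors, which phosphorylate SMAD transcription factors. TGF-beta is secreted in a latent form bound to its propeptide and to latent TGF-beta binding proteins, and it must be released before it can signal. TGF-beta and activins act through SMAD2 and SMAD3 and BMPs through SMAD1, SMAD5 and SMAD9, with SMAD4 as the common partner, while SMAD6 and SMAD7 are induced by the pathway and inhibit it. In the liver TGF-beta is known for driving stellate cells to make extracellular matrix, and BMP ligands of sinusoidal endothelial cells are known for setting hepcidin (Hamp) in hepatocytes.

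The upstream sequences of a few genes are shown because SMAD proteins bind short motifs near their targets and because these genes stand for the different outcomes below. Smad6, Tgfbi and Gdf10 rose, whereas Gdf2, the neighbour of Gdf10 among protein-coding genes, and the BMP target Hamp did not pass the test. Each stretch runs 5′ to 3′ on the gene's strand from 250 bases before the start site to 20 bases after it, taken from RefSeq (GRCm38.p6). Capitals mark GTCTAGAC (the palindromic SMAD box), CAGAC (a short SMAD-binding element) and GGCGCC (a GC-rich element bound by BMP SMADs), each searched on both strands. The positions are chr9:64022040-64022309 on the minus strand for Smad6, chr13:56609336-56609605 on the plus strand for Tgfbi, chr14:33923337-33923606 on the plus strand for Gdf10, chr14:33940789-33941058 on the plus strand for Gdf2 and chr7:30944010-30944279 on the minus strand for Hamp.
Smad6: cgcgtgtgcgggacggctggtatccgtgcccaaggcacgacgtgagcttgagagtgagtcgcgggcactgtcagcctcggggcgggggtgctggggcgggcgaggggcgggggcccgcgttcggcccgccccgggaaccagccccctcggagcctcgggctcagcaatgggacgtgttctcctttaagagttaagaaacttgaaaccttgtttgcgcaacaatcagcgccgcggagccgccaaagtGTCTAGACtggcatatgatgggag
Tgfbi: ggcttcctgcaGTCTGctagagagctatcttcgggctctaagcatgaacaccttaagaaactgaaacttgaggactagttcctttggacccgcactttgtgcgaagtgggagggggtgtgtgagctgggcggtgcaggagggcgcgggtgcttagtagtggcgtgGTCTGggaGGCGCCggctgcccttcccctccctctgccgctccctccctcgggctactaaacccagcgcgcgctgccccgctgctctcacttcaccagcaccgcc
Gdf10: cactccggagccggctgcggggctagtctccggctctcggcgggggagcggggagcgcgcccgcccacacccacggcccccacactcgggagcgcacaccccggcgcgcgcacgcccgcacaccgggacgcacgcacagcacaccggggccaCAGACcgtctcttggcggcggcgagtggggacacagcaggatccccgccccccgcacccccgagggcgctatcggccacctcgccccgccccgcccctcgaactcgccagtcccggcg
Gdf2: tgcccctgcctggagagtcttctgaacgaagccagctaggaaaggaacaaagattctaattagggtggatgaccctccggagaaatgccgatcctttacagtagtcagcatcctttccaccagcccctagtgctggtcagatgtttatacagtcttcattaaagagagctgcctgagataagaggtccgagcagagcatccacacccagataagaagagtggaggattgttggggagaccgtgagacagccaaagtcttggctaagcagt
Hamp: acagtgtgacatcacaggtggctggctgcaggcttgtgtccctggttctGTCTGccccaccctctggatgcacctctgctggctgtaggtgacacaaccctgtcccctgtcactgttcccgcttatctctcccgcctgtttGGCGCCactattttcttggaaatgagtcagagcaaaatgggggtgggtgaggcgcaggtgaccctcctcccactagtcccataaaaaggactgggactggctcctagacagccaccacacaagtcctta
The palindrome GTCTAGAC was found in 0.183% of 32851 RefSeq windows of 270 bases and in 1 of the 49 windows of members, that of Smad6, where it spans the start site from base -4 to base 4. CAGAC is common, at 45.4% of all windows and 42.9% of the members' windows, and was found 2 times in Tgfbi and 1 time each in Gdf10 and Hamp. GGCGCC was found in 10.4% of all windows and 20.4% of the members' windows, and also in the window of Hamp. Among the members the called Tgfbi had it, and so did uncalled ones such as Bmpr1a, Bmpr2 and Smad9. The 49 windows belong to 39 of the 54 members. These matches describe the letters in the windows. The window of Gdf2 held none of the 3 motifs, and neither did those of the called members Tgfb1 and Inhba.

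In MCD diet livers the 3 TGF-beta ligand genes, 2 latent TGF-beta binding protein genes, the activin subunit Inhba, the ligand Gdf10, the inhibitory Smad6 and the TGF-beta-induced matrix gene Tgfbi rose, and the procollagen protease Bmp1 fell. None of the 12 receptors and none of the 6 signalling SMADs passed the test. With 9.98% of all genes called, sets of this size are too small for an absence of calls to stand out. In all, 10 of 54 members were called (18.5%, against 9.98% of all genes) by limma with an adjusted p below 0.05. Upward calls numbered 9 (16.7%, against 6.37%) and downward calls 1 (1.85%, against 3.62%). The median difference, MCD diet minus normal diet, was 0.23 over the members and -0.03 over all genes on the log2 scale. It was 0.05 over the genes above the median signal. Above 0 lay 41 members and below 0 lay 13, while 9809 of all 22180 genes lay above 0. The diets did not overlap for 32 members with MCD diet higher (25.0% of all genes) and 9 with MCD diet lower (29.2% of all genes). Of the members 40 exceeded the median signal over all genes, and all 10 calls were among these. In the whole table, 11.5% of genes brighter than the median were called higher and 1.22% of the others.

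The count of calls moved with scaling and with single arrays. Each omission of an array leaves 1 array in its diet and fewer degrees of freedom, so a call can be lost although the difference stays the same. With quantile normalization 7 members rose and 3 fell, and with each array centred on its median 6 rose and 2 fell, so that the share of calls upward went from 90.0% to 70.0% and 75.0%. Over all genes 1412 rose and 802 fell as deposited, 1303 and 1046 with quantile normalization and 1181 and 1008 with centring. The median of the members was 0.15 and 0.16 under these scalings, against -0.02 and -0.10 over all genes. Over the genes above the median signal it was -0.04 and -0.02. The members above 0 then numbered 36 and 37. The members that rose numbered 4 without normal diet array 1, 3 without normal diet array 2, 2 without MCD diet array 1 and 6 without MCD diet array 2, while those that fell numbered 2, 0, 0 and 1. Of the 10 called members 0 changed sign in any of the 11 alternatives, and Tgfbi alone kept its call in all of them. The diets did not overlap for any called member, so omitting 1 array could not turn a sign. Removal of dim genes, averaged rows, the intensity trend and the replicate block left the differences of the called members as they were. Only quantile normalization and median centring could therefore have turned a sign.

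**Figure D1:**
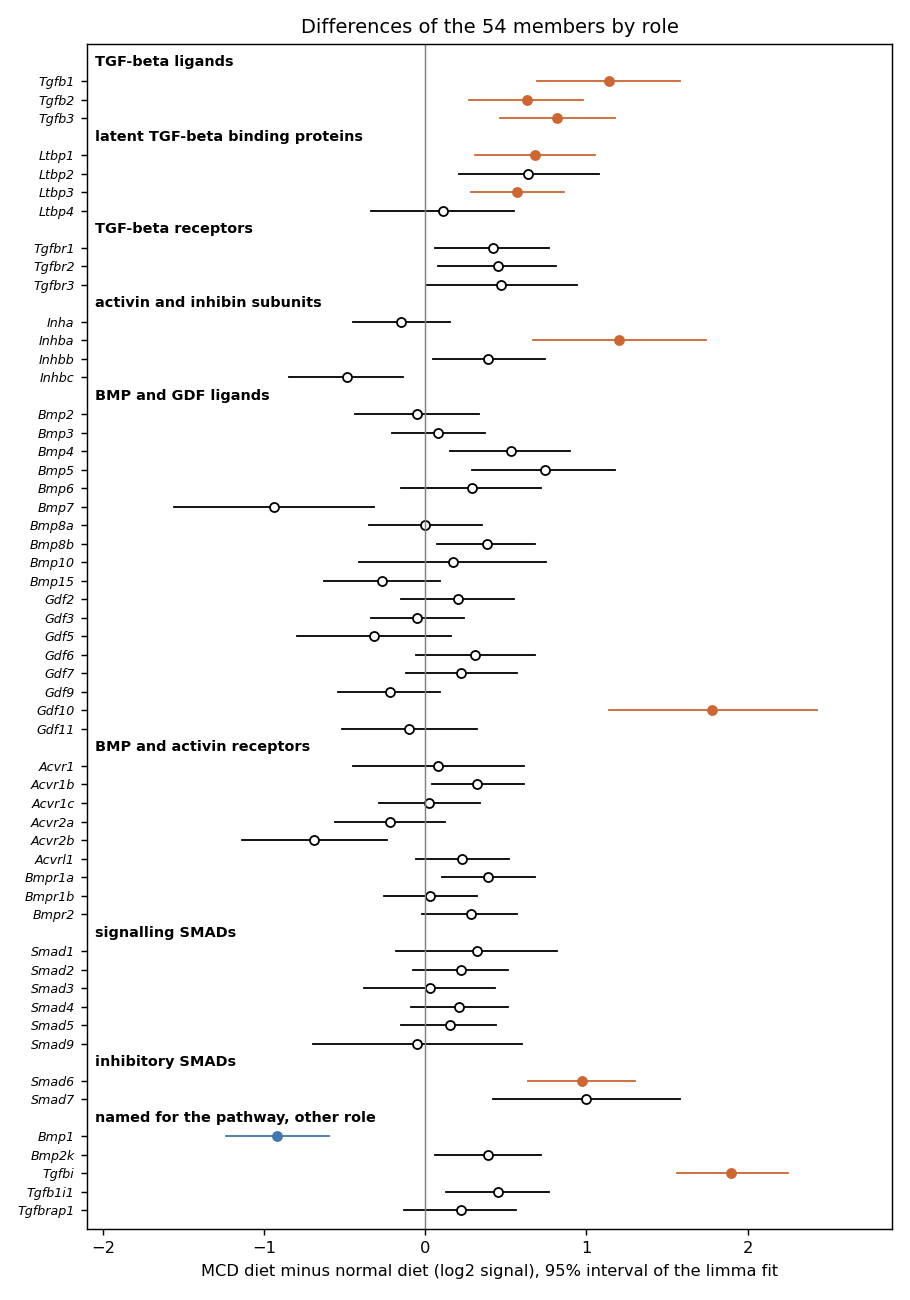
Difference in log2 signal between MCD diet and normal diet livers for the 54 members, grouped by role, with the 95% interval of the limma fit (n = 2 arrays per diet). Filled orange points are genes that rose, the filled blue point the gene that fell and open points genes that did not pass. All 3 TGF-beta ligands lie to the right of 0. None of the 12 receptors is filled, where 9.98% of all genes were called.

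The 3 genes for TGF-beta itself rose together. Tgfb1, the isoform best known in fibrosis, had log2 signals of 4.07 and 3.64 against 5.10 and 4.88 (normal diet arrays 1 and 2, then MCD diet arrays 1 and 2, here and below). The diets did not overlap, and the gene rose by 1.14 ± 0.18 (SE of the log2 difference here and below, n = 2 arrays per diet), which is 2.20-fold (limma adjusted p = 0.0157). Tgfb3, another isoform, measured 3.08 and 3.08 against 4.06 and 3.75 and rose by 0.82 ± 0.15 or 1.77-fold (limma adjusted p = 0.0219). Its normal diet arrays were equal to 2 decimals, and both MCD diet arrays were higher. Tgfb2 measured 2.66 and 2.76 against 3.19 and 3.48 and rose by 0.63 ± 0.14 or 1.54-fold (limma adjusted p = 0.0492), without overlap but at a signal close to the median over all genes. In whole tissue, more cells of a type and more RNA per cell cannot be told apart. The call of Tgfb1 was lost without normal diet array 2 (0.92) or MCD diet array 1 (1.02), its adjusted p running from 0.0126 to 0.0825 over the alternatives. Here and below, a range after a gene in such sentences is that of its adjusted p, and the value after an array or setting is the log2 difference there. That of Tgfb3 (0.0189 to 0.0935) was lost without normal diet array 1 (0.82), normal diet array 2 (0.82) or MCD diet array 1 (0.67). That of Tgfb2 (0.0407 to 0.171) was lost without normal diet array 1 (0.58), normal diet array 2 (0.68), MCD diet array 1 (0.77) or MCD diet array 2 (0.48) or with quantile normalization (0.56), median centring (0.56), the intensity trend (0.63) or the replicate block (0.63).

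Among the latent TGF-beta binding proteins, most of which hold the latent ligand in the matrix, Ltbp1 and Ltbp3 rose. Ltbp1 measured 2.69 and 2.69 against 3.20 and 3.54, a rise of 0.68 ± 0.15 (limma adjusted p = 0.0446). Ltbp3 measured 3.46 and 3.37 against 3.99 and 3.98, a rise of 0.57 ± 0.12 (limma adjusted p = 0.0361), with MCD diet arrays that nearly coincide. Neither gene overlapped between the diets. Ltbp2, a family member found in elastic microfibrils, measured 2.18 and 2.55 against 2.86 and 3.15. Its difference of 0.64 ± 0.18 is of the same size, but it did not pass (limma adjusted p = 0.0809, or 0.0456 with a replicate block, the lowest over its alternatives, the range being 0.0456 to 0.264). Ltbp4 overlapped at 5.07 and 4.92 against 4.87 and 5.33, with a difference of 0.11, an interval of -0.34 to 0.55 and a value of -0.03 with quantile normalization. The call of Ltbp1 (0.0364 to 0.158) was lost without normal diet array 1 (0.68), normal diet array 2 (0.67), MCD diet array 1 (0.85) or MCD diet array 2 (0.51) or with median centring (0.61), the intensity trend (0.68) or the replicate block (0.68). That of Ltbp3 (0.0324 to 0.163) was lost without normal diet array 1 (0.62), normal diet array 2 (0.52), MCD diet array 1 (0.57) or MCD diet array 2 (0.58) or with quantile normalization (0.38), median centring (0.51), the intensity trend (0.57) or the replicate block (0.57).

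The receptors that carry the TGF-beta signal did not pass, although each lay higher on both MCD diet arrays. Tgfbr1, the type I receptor, measured 5.56 and 5.50 against 5.80 and 6.09, a difference of 0.42 ± 0.14 with a 95% interval of 0.06 to 0.77 (limma adjusted p = 0.144). Tgfbr2, the type II receptor, measured 5.32 and 4.99 against 5.59 and 5.61, a difference of 0.45 ± 0.15 with an interval of 0.08 to 0.81 (limma adjusted p = 0.134). The co-receptor Tgfbr3 (betaglycan) measured 5.08 and 4.58 against 5.22 and 5.37, a difference of 0.47 ± 0.19 with an interval of 0.01 to 0.94 (limma adjusted p = 0.2). The upper ends of these intervals lie within the range of the differences of the 3 ligands.

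Of the activin and inhibin subunits Inhba rose. Inhba, whose product forms activin A, measured 2.70 and 2.44 against 3.48 and 4.07 and rose by 1.20 ± 0.22, or 2.30-fold (limma adjusted p = 0.0238), without overlap. Both normal diet signals were below the median over all genes, and MCD diet array 2 was the higher of its pair. Inhbb, the subunit of activin B, measured 2.46 and 2.64 against 3.05 and 2.84, a difference of 0.39 ± 0.14 (limma adjusted p = 0.155). Inhbc, a subunit made in hepatocytes, measured 6.92 and 7.13 against 6.43 and 6.65, a difference of -0.49 ± 0.15 (limma adjusted p = 0.096), with MCD diet lower and no overlap. Inha, the inhibin alpha subunit, measured 2.94 and 2.80 against 2.73 and 2.71, a difference of -0.15 ± 0.12. The call of Inhba (0.0186 to 0.106) was lost without normal diet array 1 (1.34), normal diet array 2 (1.07) or MCD diet array 2 (0.91).

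**Figure D2:**
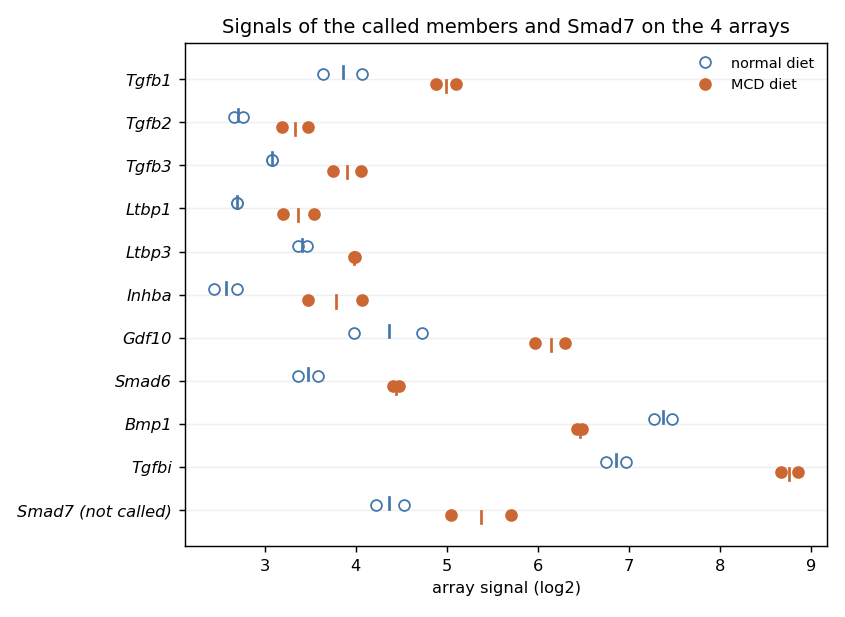
Log2 array signal of the 10 called members and of Smad7 (not called) on each of the 4 arrays, with open blue circles for normal diet, filled orange circles for MCD diet and short bars for the group means. The diets do not overlap for any of these genes, and Bmp1 is the gene with the normal diet on the right.

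Among 18 BMP and GDF ligands Gdf10 rose and 17 did not pass, where 6.37% of all genes were called higher. Of the 18, 7 lay at or below the median signal over all genes, where 1.22% of genes were called higher. Gdf10, also called BMP3b, measured 4.73 and 3.98 against 6.30 and 5.97 and rose by 1.78 ± 0.26, or 3.44-fold (limma adjusted p = 0.0122). The diets did not overlap, and normal diet array 1 was the higher of its pair. The call (0.00638 to 0.0682) was lost without MCD diet array 1 (1.61). Its neighbour Gdf2, which encodes BMP9, measured 4.51 and 4.37 against 4.51 and 4.78. The difference of 0.20 ± 0.14 had an interval of -0.15 to 0.55 (limma adjusted p = 0.469), which does not reach the difference of Gdf10. Bmp10, a close relative of Gdf2, overlapped at 4.73 and 4.02 against 4.60 and 4.48 and differed by 0.17 ± 0.24 (-0.03 with quantile normalization).

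The endothelial BMP ligands known to regulate hepcidin did not pass. Bmp2 overlapped at 4.59 and 4.24 against 4.43 and 4.29, a difference of -0.05 ± 0.16 with an interval of -0.44 to 0.33. Bmp6 measured 3.88 and 3.86 against 3.92 and 4.39, a difference of 0.29 ± 0.18 (limma adjusted p = 0.401) with MCD diet array 2 apart from the other 3. Bmp4 measured 3.62 and 3.32 against 3.90 and 4.09, without overlap, and differed by 0.53 ± 0.15 (limma adjusted p = 0.095). Bmp5 measured 5.74 and 5.33 against 6.14 and 6.41, a difference of 0.74 ± 0.18 (limma adjusted p = 0.0596), and passed where the dimmest 50% of genes were left out (0.0463, within 0.0463 to 0.217 over the alternatives). Bmp7, an opponent of TGF-beta in models of fibrosis, measured 4.35 and 5.13 against 3.81 and 3.79, a difference of -0.94 ± 0.25 (limma adjusted p = 0.0747). Its normal diet arrays stood apart from each other. Without normal diet array 1 it differed by -1.33 and passed (0.0141), as it did with quantile normalization (-1.12), within 0.0141 to 0.224 over the alternatives. Bmp8b differed by 0.38, Gdf6 by 0.31 and Gdf5 by -0.32, and the other 7 ligands lay between -0.27 and 0.22.

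None of the 9 receptors of the BMP and activin branch passed, where 9.98% of all genes were called. Acvr2b, a type II receptor for activins, measured 3.55 and 3.87 against 2.83 and 3.22, without overlap. Its difference of -0.69 ± 0.18 missed the threshold (limma adjusted p = 0.0735) and passed with quantile normalization (-0.82), median centring (-0.75) and the replicate block, within 0.0378 to 0.274 over the alternatives. Bmpr1a, a type I BMP receptor, measured 5.74 and 5.78 against 6.10 and 6.21, a difference of 0.39 ± 0.12 (limma adjusted p = 0.108). Bmpr2, the BMP type II receptor, measured 8.57 and 8.57 against 8.79 and 8.90, a difference of 0.28 ± 0.12 (limma adjusted p = 0.229). Both lay higher on the MCD diet arrays without overlap. Acvr1 (ALK2) overlapped at 5.63 and 5.43 against 5.30 and 5.92 and differed by 0.08 ± 0.22. Acvrl1 (ALK1), the endothelial receptor for the products of Gdf2 and Bmp10, measured 2.45 and 2.53 against 2.72 and 2.72, a difference of 0.23 ± 0.12 at signals below the median over all genes. Acvr1b differed by 0.32 and Acvr2a by -0.22, and Acvr1c and Bmpr1b by 0.02 and 0.03 (both below 0 with median centring).

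The 6 signalling SMADs, which carry the signal to the nucleus, lay between -0.05 and 0.32 with no call, and 0 of them had an unadjusted p under 0.05 in limma, where 24.2% of all genes did. By the same measure 26 of the 54 members and 6 of the 12 receptors did, 5 of these receptors with MCD diet higher. Smad4, the common partner, measured 7.01 and 6.89 against 7.20 and 7.12, a difference of 0.21 ± 0.12 with an interval of -0.09 to 0.51. Smad3 overlapped at 3.98 and 3.57 against 3.83 and 3.76 and differed by 0.03 ± 0.17, a sign that turned with quantile normalization (-0.17) and median centring (-0.04). Smad2 and Smad5 differed by 0.22 and 0.15.

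Of the 2 inhibitory SMADs Smad6 rose. It measured 3.36 and 3.58 against 4.48 and 4.41, a rise of 0.97 ± 0.13 or 1.96-fold (limma adjusted p = 0.00957), with no overlap and close pairs. The call (0.00875 to 0.055) was lost without MCD diet array 1 (0.94). Smad7, which blocks TGF-beta receptors, measured 4.53 and 4.22 against 5.70 and 5.05, with means of 4.37 and 5.37 and a wider spread on MCD diet, array 1 being higher. The interval of its difference was 0.42 to 1.58, and it missed the threshold (limma adjusted p = 0.0538). It passed without MCD diet array 2 (1.33, adjusted p = 0.0245), with the replicate block, with the intensity trend and where dim genes were left out, within 0.0216 to 0.208 over the alternatives.

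Another 5 members carry the family names without being ligands, receptors or SMADs. Tgfbi encodes a secreted matrix protein named for its induction by TGF-beta. It measured 6.97 and 6.75 against 8.67 and 8.86 and rose by 1.90 ± 0.14, or 3.74-fold (limma adjusted p = 0.00147), with adjusted p from 0.000656 to 0.00879 over the alternatives. Bmp1 encodes a metalloprotease that trims procollagen. It measured 7.28 and 7.47 against 6.43 and 6.48 and fell by 0.92 on the log2 scale (SE 0.13, 1.89-fold lower, limma adjusted p = 0.0103). Neither gene overlapped between the diets. The call of Bmp1 (0.00745 to 0.0575) was lost without normal diet array 2 (-0.82) or MCD diet array 1 (-0.89). Tgfb1i1, a focal adhesion adaptor, differed by 0.45 ± 0.13 (limma adjusted p = 0.0963), Bmp2k, a kinase, by 0.39 and Tgfbrap1, a receptor-associated protein, by 0.22.

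**Figure D3:**
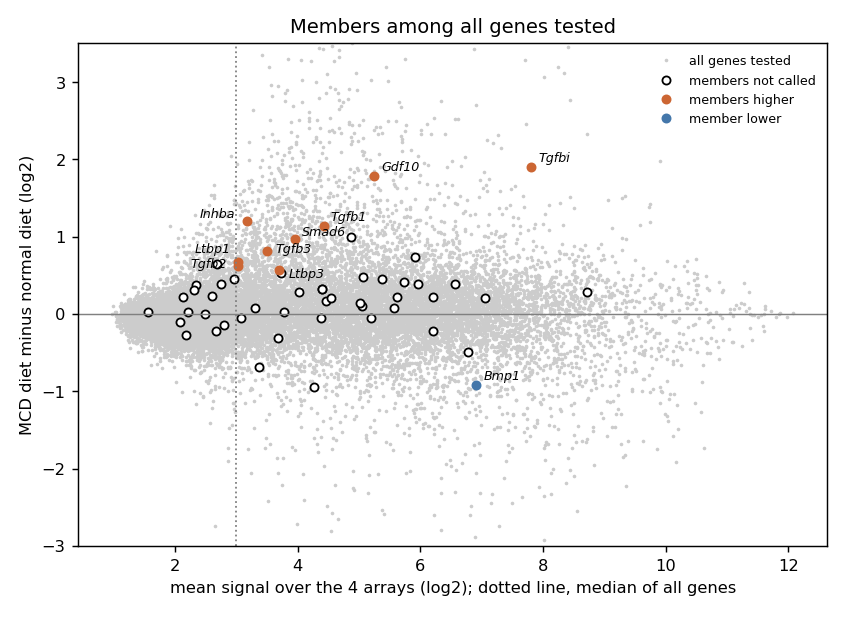
Difference between the diets against the mean log2 signal over the 4 arrays, for all 22180 genes tested (grey) and the members (open if not called, orange if higher, blue if lower). The dotted line marks the median signal, to the right of which all 10 called members lie, and 66 genes outside the plotted range of -3 to 3.5 are not drawn.

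Other genes of the pathway, listed by role and outside the family names, gave 14 higher and 3 lower of 74 measured (18.9% and 4.05%, against 6.37% and 3.62% of all genes), and 6 more of the 80 listed were not analysed here. These lists, too, were chosen with earlier results of these data known. The median over the 74 was 0.07, or 0.13 with quantile normalization and 0.01 with median centring, where 11 rose and 3 fell under either scaling. The genes higher numbered 10 without normal diet array 1, 4 without normal diet array 2, 9 without MCD diet array 1 and 9 without MCD diet array 2. Those lower numbered 0, 1, 1 and 2 in the same order. Fstl1, Thbs1, Ccn2 and Id2 were called in all 11 alternatives.

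The extracellular antagonists gave 1 call of 17, an upward one, where 6.37% of all genes were called higher, with a median of -0.01. Of the 17, 11 lay at or below the median signal over all genes, where 1.22% of genes were called higher. Fstl1, a secreted glycoprotein of the follistatin-like group, measured 3.38 and 3.16 against 4.65 and 4.36 and rose by 1.23 ± 0.16 (limma adjusted p = 0.00704). Bambi, a decoy receptor, measured 4.41 and 4.27 against 4.85 and 4.79 and differed by 0.48 ± 0.12 (limma adjusted p = 0.0664). Neither overlapped between the diets. Fst, the activin antagonist follistatin, measured 3.48 and 2.53 against 2.47 and 2.23, a difference of -0.66 ± 0.30 (limma adjusted p = 0.258). Its normal diet array 1 stood apart from the other 3, and without normal diet array 2 the difference was -1.13 and passed (adjusted p = 0.0327, within 0.0327 to 0.663 over the alternatives).

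Of 15 co-receptors and partners of the latent complex 3 rose and 2 fell, with a median of 0.32. Over all genes 6.37% were called higher and 3.62% lower. In this list 12 genes lay above the median signal over all genes, where 11.5% were called higher. Itgb8, an integrin chain that helps to activate latent TGF-beta, measured 3.21 and 3.48 against 4.38 and 5.12 and rose by 1.40 ± 0.26 (limma adjusted p = 0.0239). Thbs1, a thrombospondin that can also activate it, measured 3.22 and 3.22 against 4.49 and 4.35 and rose by 1.20 ± 0.12 (limma adjusted p = 0.00371). Both were higher on each MCD diet array. The BMP co-receptor Rgmb measured 3.70 and 3.65 against 4.22 and 4.63 and rose by 0.75 ± 0.17 (limma adjusted p = 0.0446). Tfr2, an iron sensor of hepatocytes, measured 8.71 and 8.67 against 7.89 and 7.67 and fell by 0.91 (SE 0.13, limma adjusted p = 0.0115). Tmprss6, a protease that cleaves hemojuvelin and so limits hepcidin, measured 8.32 and 8.26 against 7.56 and 7.49 and fell by 0.77 (SE 0.12, limma adjusted p = 0.014). Eng, the endothelial co-receptor endoglin, overlapped at 7.63 and 7.30 against 7.97 and 7.60 and differed by 0.32 ± 0.18 (limma adjusted p = 0.361). The call of Itgb8 (0.0126 to 0.0924) was lost without normal diet array 1 (1.27) or normal diet array 2 (1.54). For Rgmb (0.0356 to 0.165) it was lost without normal diet array 1 (0.77), normal diet array 2 (0.72) or MCD diet array 2 (0.54) or with quantile normalization (0.55), the intensity trend (0.75) or the replicate block (0.75). For Tfr2 (0.0071 to 0.0536) it was lost without normal diet array 1 (-0.89) or normal diet array 2 (-0.93), and for Tmprss6 (0.0102 to 0.0667) without normal diet array 1 (-0.74), normal diet array 2 (-0.79), MCD diet array 1 (-0.80) or MCD diet array 2 (-0.73).

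Intracellular regulators of SMADs gave 4 higher and 0 lower of 16 (against 6.37% and 3.62% of all genes), with a median of 0.04. Of the 16, 15 lay above the median signal over all genes, where 11.5% were called higher. The co-repressor Ski measured 5.26 and 5.12 against 6.05 and 6.07 and rose by 0.87 ± 0.12 (limma adjusted p = 0.0102). Its relative Skil rose by 0.66 ± 0.14 (limma adjusted p = 0.0408), Fkbp1a, which binds type I receptors, by 0.61 ± 0.14 (limma adjusted p = 0.0474) and the ubiquitin ligase Wwp1 by 0.59 ± 0.13 (limma adjusted p = 0.041). The ubiquitin ligases Smurf1 and Smurf2, which target receptors and SMADs, differed by -0.10 and -0.02. Ski (0.00971 to 0.0584) lost its call without normal diet array 2 (0.80) or MCD diet array 1 (0.88). Skil (0.0343 to 0.157) lost it without normal diet array 1 (0.65), normal diet array 2 (0.66) or MCD diet array 1 (0.51) or with quantile normalization (0.46), median centring (0.59), the intensity trend (0.66) or the replicate block (0.66). Fkbp1a (0.0397 to 0.191) lost it without normal diet array 1 (0.49), normal diet array 2 (0.73), MCD diet array 1 (0.55) or MCD diet array 2 (0.68) or with quantile normalization (0.49), median centring (0.55), the intensity trend (0.61) or the replicate block (0.61). Wwp1 (0.0224 to 0.171) lost it without normal diet array 1 (0.61), normal diet array 2 (0.57), MCD diet array 1 (0.50) or MCD diet array 2 (0.68) or with median centring (0.52) or the replicate block (0.59).

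Transcripts that TGF-beta induces gave 3 higher and 1 lower of 13 (against 6.37% and 3.62% of all genes), with a median of 0.40. Of the 13, 10 lay above the median signal over all genes, where 11.5% were called higher. Ccn2, the matricellular connective tissue growth factor, measured 4.22 and 4.40 against 6.42 and 5.79 and rose by 1.80 ± 0.22 (limma adjusted p = 0.00649). The fibrillar collagen genes Col1a2 and Col1a1 rose by 1.16 ± 0.20 (limma adjusted p = 0.0209) and 0.98 ± 0.20 (limma adjusted p = 0.0327). Postn, a matricellular protein of fibroblasts, measured 4.48 and 4.10 against 2.87 and 3.48 and fell by 1.11 (SE 0.24, limma adjusted p = 0.0389). The call of Col1a2 (0.0168 to 0.0841) was lost without normal diet array 2 (0.95) or MCD diet array 2 (0.95) or with averaged rows (0.56). For Col1a1 (0.0204 to 0.118) it was lost without normal diet array 1 (0.93), normal diet array 2 (1.04) or MCD diet array 2 (0.71) or with quantile normalization (0.81), and for Postn (0.0179 to 0.138) without normal diet array 1 (-0.92), normal diet array 2 (-1.30) or MCD diet array 1 (-0.80) or with the replicate block (-1.11).

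Transcripts that BMPs induce gave 3 higher and 0 lower of 9 (against 6.37% and 3.62% of all genes), with a median of 0.28. Of the 9, 7 lay above the median signal over all genes, where 11.5% were called higher. Id2, an inhibitor of helix-loop-helix factors, measured 8.50 and 8.14 against 9.85 and 9.75 and rose by 1.48 ± 0.16 (limma adjusted p = 0.00414). Atoh8, a transcription factor, rose by 1.45 ± 0.21 (limma adjusted p = 0.012), and Id3, a relative of Id2, by 1.03 ± 0.17 (limma adjusted p = 0.018). Id1, a classical BMP target, differed by 1.62 ± 0.47 and did not pass (limma adjusted p = 0.0896). Its signals were 3.24 and 3.39 against 5.71 and 4.15, with the MCD diet arrays far apart, and without MCD diet array 2 the difference was 2.40 and passed (adjusted p = 0.00393, within 0.00393 to 0.23 over the alternatives). Hamp, the iron hormone hepcidin, measured 11.15 and 11.28 against 11.64 and 11.35 near the top of the scale, a difference of 0.28 ± 0.15 (limma adjusted p = 0.323), and Hamp2 differed by -0.06. The call of Atoh8 (0.00703 to 0.0573) was lost without normal diet array 2 (1.41), and that of Id3 (0.0149 to 0.0921) without normal diet array 2 (0.82), MCD diet array 1 (0.96) or MCD diet array 2 (1.10). The 4 other ligands and receptors listed gave no call.

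**Figure D4:**
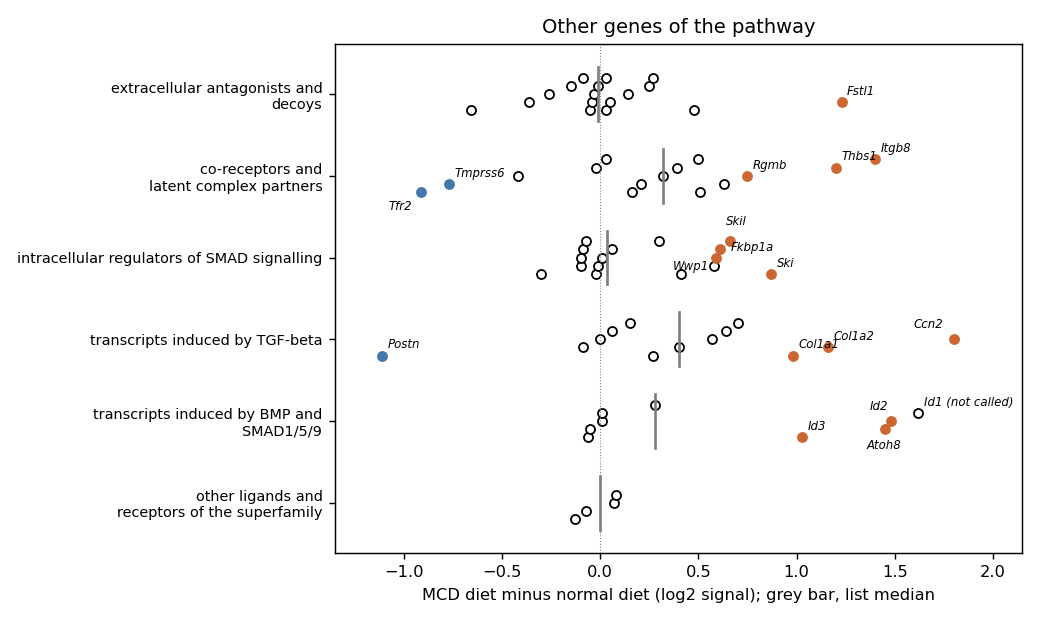
Difference in log2 signal between MCD diet and normal diet livers for 74 other genes of the pathway in 6 lists, with grey bars at the list medians, orange for genes that rose, blue for genes that fell and open circles for genes that did not pass. Of 17 antagonists only Fstl1 is filled, and 11 of the 17 lay at or below the median signal over all genes. Id1 lies far to the right without a call.

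The arrays had similar medians over all rows, from 2.57 to 2.65. Across genes, which are not independent, the SD of the difference was 0.267 and 0.274 between arrays of the same diet and 0.528 to 0.598 between diets. No cell type marker was at 0. The summed linear signal of 5 hepatocyte markers was 13285 to 13629 on normal diet and 10160 to 10804 on MCD diet (0 higher, 2 lower). The 2 lower ones were of unlike size, Serpina1e with a log2 difference of -3.78 and Apoa1 with -0.50. Ttr and Tat differed by -0.15 and -0.42 without a call, and Alb lay between 11.93 and 12.04 (log2) on the 4 arrays. The summed linear signal of 8 stellate cell markers was 300 to 376 on normal diet and 446 to 452 on MCD diet (0 higher, 1 lower), and that of 6 myofibroblast markers 78.2 to 93.3 and 116 to 177 (2 higher, 1 lower). Of the myofibroblast markers, Col1a1, Tagln, Postn and Lox are also in the list of transcripts that TGF-beta induces. For 8 sinusoidal endothelial markers the sums were 819 to 878 and 595 to 625 (0 higher, 4 lower), and for 6 Kupffer cell markers 269 to 283 and 157 to 315 (0 higher, 3 lower), where the sums overlap. They also overlapped for 5 markers of other endothelial cells, at 180 to 209 and 186 to 187 (1 higher, 0 lower), and for 3 smooth muscle markers, at 17.6 to 20.2 and 16.7 to 29.5 (no call). The 5 measured markers of lipid-associated macrophages all rose, with sums of 56.2 to 57.3 and 1196 to 1695, as did all 6 cholangiocyte markers, with sums of 53.3 to 60.9 and 282 to 286. Their part in the differences of the members was not tested.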

How the data were processed

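Total liver RNA of 4 samples (2 per diet) was hybridised to Mouse Gene 2.1 ST arrays. The authors deposited log2 signals, 1 per transcript row. The submitters' processing notes name Transcriptome Analysis Console, and the sources used here give neither its version nor the background correction, summarization and normalization. No log base is written anywhere, and log2 is an inference from the range of values. In the platform annotation 23521 of 34472 rows name 1 gene, 1814 several and 9137 none. Where a gene had several rows (1082 genes) the brightest was used, leaving 22180 genes.

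Groups came from the sample titles. All genes were fitted with limma 3.58.1 in R 4.3.3 (two-sided, no block, no filter) and adjusted by Benjamini-Hochberg over all genes, with a threshold of 0.05. Moderation raised the 2 residual degrees of freedom to 6.06. Tested on 20 simulated sets of 22180 genes for this comparison, the fit recovered 47% of changes of 1 and 96.4% of changes of 2 (log2), with 4.82% of calls false. Each set had 200 changed genes and independent normal errors, whereas 2214 genes were called in the data, so these shares need not hold there. The members and lists were chosen with earlier results of these data known. Per-array values are given for every called member and for a set list of ligands, receptors and SMADs, the others by range and count with examples. Of the other pathway genes, up to 4 called genes per list and direction are named, and always Id1, Hamp, Eng, Bambi and Fst. The 11 alternatives were quantile normalization, median centring, removal of the dimmest 25% or 50% of genes, averaged rows, an intensity trend, a replicate block and omission of each single array.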

Additional observations from a re-analysis of the deposited data

How the results depend on the processing

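Over the 4 fits that leave out 1 array each, the calls over all genes, 2214 with all arrays, ran from 1050 to 1493, the members that rose from 2 to 6 and those that fell from 0 to 2. The other pathway genes that rose ran from 4 to 10 and those that fell from 0 to 2. The members that fell numbered 3 with quantile normalization, 2 with median centring and 2 with the replicate block. No other alternative moved a count by more than 1.5 times. The replicate block, which pairs arrays by a number whose meaning the labels do not give, left 8 members higher and 1950 calls over all genes. Deviations of same-numbered arrays correlated at 0.0537 across genes, so the number is not taken as a pairing.

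Signs turned only for 11 uncalled members close to 0. For the called members only quantile normalization and median centring could have turned a sign, and neither did. With quantile normalization Ltbp4 was -0.03, Bmp3 -0.06, Bmp10 -0.03, Acvr1 -0.00 and Smad3 -0.17. With median centring Bmp8a was -0.06, Acvr1c -0.04, Bmpr1b -0.04 and Smad3 -0.04. Without single arrays the ranges were -0.13 to 0.34 for Ltbp4, -0.23 to 0.12 for Bmp2, -0.14 to 0.14 for Bmp8a, -0.19 to 0.52 for Bmp10, -0.32 to 0.12 for Gdf11, -0.23 to 0.39 for Acvr1, -0.07 to 0.11 for Acvr1c, -0.02 to 0.08 for Bmpr1b, -0.18 to 0.23 for Smad3 and -0.37 to 0.27 for Smad9. The cause was not tested. Signal over background was not analysed, so differences of members near or below the median signal, such as Tgfb2 and Ltbp1, are uncertain in size.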

Other observations

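Of the 22 measured transcripts that TGF-beta or BMPs induce, 8 differed between the 2 MCD diet arrays by more than the 95th percentile of such gaps over all genes, 4 with array 1 higher and 4 with array 2 higher, and 14 did not. Genes for this paragraph were picked out after their values were seen. Id1 measured 5.71 on MCD diet array 1 and 4.15 on array 2, a gap of 1.56 that lies at the 99.9th percentile of such gaps over all genes. Array 1 was also the higher one for the early TGF-beta target Klf10 (gap 0.90, 99.2nd percentile), Smad7 (0.65), Ccn2 (0.63) and Atoh8 (0.62). Array 2 was instead higher for the collagen gene Col3a1 (gap of -0.77, array 1 minus array 2), the integrin chain Itgb8 (-0.75), Postn (-0.61), Inhba (-0.59) and Col1a1 (-0.55). It was also higher for the induced transcript Snai1 (-0.59). Smad7, Itgb8 and Inhba are not among the 22 transcripts counted above. Other induced genes had ordinary gaps, such as Id2 (0.09, 32.4th percentile), Id3 (0.15), Junb (-0.14) and Fn1 (0.08). The Kupffer cell markers Vsig4 (7.51 and 6.29) and Cd5l (6.20 and 4.90) were also higher on MCD diet array 1 than on array 2, and their part in these gaps was not tested. The normal diet arrays differed by -0.15 for Id1 and -0.13 for Klf10 (array 1 minus array 2). For other induced transcripts they differed more, by 0.77 for Tagln, -0.47 for Junb and 0.44 for Col3a1. Percentiles of the normal diet gaps were not computed.

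In 3 of 5 pairs of members adjacent in the order of protein-coding genes, 1 gene was called and the other was not. The share of such pairs over all genes was not computed, so the count only describes these 5 pairs. Tgfbi and Smad5 differed between the diets by 1.90 and 0.15, Gdf10 and Gdf2 by 1.78 and 0.20, and Smad6 and Smad3 by 0.97 and 0.03. In the other pairs, Acvrl1 with Acvr1b and Acvr1c with Acvr1, the differences were 0.23 and 0.32 and 0.02 and 0.08, all without a call.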
